A study of Rattus norvegicus with 2 samples.

Results

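The collagens, laminins and matricellular proteins of the rat retina were compared between a sham-operated retina and a retina after ischemia-reperfusion injury. The genes were taken from a gene expression table by their symbols: every collagen chain, every laminin chain, and *Fn1*, *Tnc*, *Spp1*, *Thbs1*, *Thbs2*, *Sparc*, *Postn*, *Vcan* and *Bcan*. This rule found 66 of the 32662 rows of the table, with 65 different symbols, because *Col23a1* has 2 rows. One of the 66, *Col4a3bp*, shares only its name with the collagens. It codes for a ceramide transfer protein and is kept in the counts but described apart, with an FPKM of 45.8 in CTRL against 35.6 in IR12.

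The study was built around circular RNAs and sequenced whole retina from Long-Evans rats, female according to its methods and 2 months old according to the labels. CTRL is the retina after a sham procedure, and IR12 is the retina collected 12 hours after blood flow was restored following ischemia. Both libraries were made from total RNA with ribosomal RNA removed. There is 1 library per condition, so no difference given here has a replicate check.

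The extracellular matrix of the retina is concentrated in basement membranes: the inner limiting membrane that faces the vitreous, the sheaths of the blood vessels, and the membrane under the pigment epithelium. Basement membranes are built from a network of collagen IV trimers and a network of laminin trimers, each laminin made of an alpha, a beta and a gamma chain. Matricellular proteins are secreted into the matrix but serve mainly as signals to cells, and many are known to respond to injury. The vitreous, the gel next to the retina, is built from collagens II, IX, V and XI.

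Expression was given as FPKM, the number of sequenced fragments scaled to transcript length and to the size of the library, so that levels can be compared between genes per length. Differences were taken as the log2 ratio of IR12 to CTRL after adding 1 to both values, a scale on which changes of genes with low FPKM look smaller than they are. A gene was counted when its mean FPKM over both libraries was at least 1, and called higher or lower when this ratio was at least 2-fold. Depth was read from the smallest repeated FPKM values of genes of equal length. By this measure, 1 FPKM rests on 1.71 times as many reads in IR12 as in CTRL. This is the number of reads behind a unit of FPKM, in which any scaling by the authors is included, and not the number of reads sequenced. For a transcript of 5 kilobases, it would correspond to 73.7 reads in CTRL and to 126 reads in IR12. The length of each transcript was not used here, so no counting intervals are given.

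The retinal label was checked against markers first. None of the 7 rod markers was past 2-fold as deposited or listed at 0. Among them, the rod transducin *Gnat1* had an FPKM of 4027 in CTRL against 4237 in IR12. *Sag* had 2482 in CTRL against 4703 in IR12, a log2 ratio of 0.92 as deposited. On the TPM scale, with both libraries rescaled to the same sum, *Sag* was higher, at 1.57, the only 1 of the 7 past the fold. Some other markers differed between the libraries. All 7 lens markers were at least 2-fold lower in IR12, and their summed FPKM was 2967 in CTRL against 355 in IR12. The most abundant lens gene, the crystallin *Cryba1*, had 1614 and 196, and none of the 7 was listed at 0. The 4 lens markers that are not crystallins were lower too, among them the lens fibre channel *Mip*, with 16.1 and 1.67. Of the 6 Müller glia markers, 5 were lower, with a sum of 1164 in CTRL against 422 in IR12. The glutamine synthetase *Glul*, their most abundant gene in CTRL, had 754 and 126. The filament protein *Vim*, the most abundant in IR12 and the exception to the lower values, had 121 and 221, and none was at 0. On the TPM scale 4 of the 6 were lower and 1, *Vim*, was higher. Of the 6 leukocyte markers, 5 were higher, with a sum of 11.5 in CTRL against 123 in IR12. The lysozyme *Lyz2* was their most abundant gene, and *S100a8* was listed at 0 in CTRL only. On the TPM scale all 6 leukocyte markers were higher.

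Most of the called matrix genes were lower in IR12, and most of these were collagens. Of the 41 genes with a mean FPKM of at least 1, 16 were at least 2-fold lower and 4 at least 2-fold higher, where 6.05% of all 13186 genes passing the same minimum were lower and 6.29% were higher. The 16 lower genes are 13 collagens, the laminin chain *Lama1* and the matricellular genes *Sparc* and *Postn*. The 4 higher genes are the collagen *Col5a3*, the laminin chain *Lamc1* and the matricellular genes *Spp1* and *Thbs1*. The median log2 ratio of the 41 genes was -0.68, that of the 25 collagens among them -1.002, and that of all genes 0.02. With no minimum, the medians of the members and of the collagens were -0.27 and -0.26. With 0.1 added to each value in place of 1, they were -0.93 and -1.58. In whole tissue, fewer cells of a type and less RNA per cell cannot be told apart. The part of the lens, Müller glia and leukocyte markers in these counts was not tested.

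The direction of the lower genes held when both libraries were rescaled to the same sum (TPM scale), but fewer passed the fold. This rescaling raises the median log2 ratio of all genes by 0.59, to 0.62, because the FPKM of CTRL sum to more. On it, 9 genes were lower and 6 higher, where 3.4% of all genes were lower and 22.3% higher. All 9 were among the 16. The median of the members was then -0.22 and that of the collagens -0.70, against 0.62 for all genes. *Col6a1* and *Fn1* joined the higher genes on this scale.

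**Figure D1:**
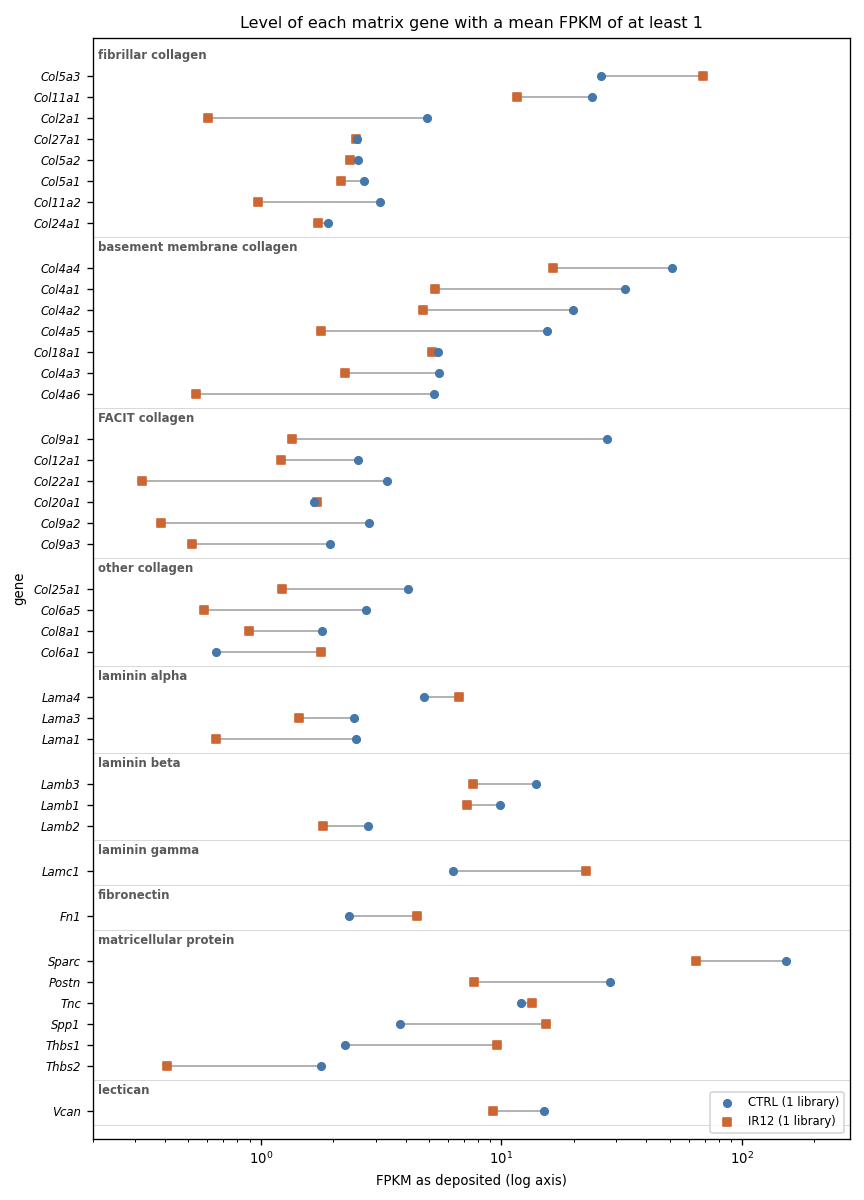
FPKM of each matrix gene with a mean of at least 1 in CTRL (circles) and IR12 (squares), 1 library each, on a log axis and grouped by role. A square left of its circle is a lower value in IR12, as for 31 of the 40 genes; on the TPM scale 24 of the 40 are lower. The 6 collagen IV chains, *Col4a1* to *Col4a6*, all lie to the left, and *Col5a3*, *Lamc1*, *Spp1* and *Thbs1* lie far to the right.

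**Figure D2:**
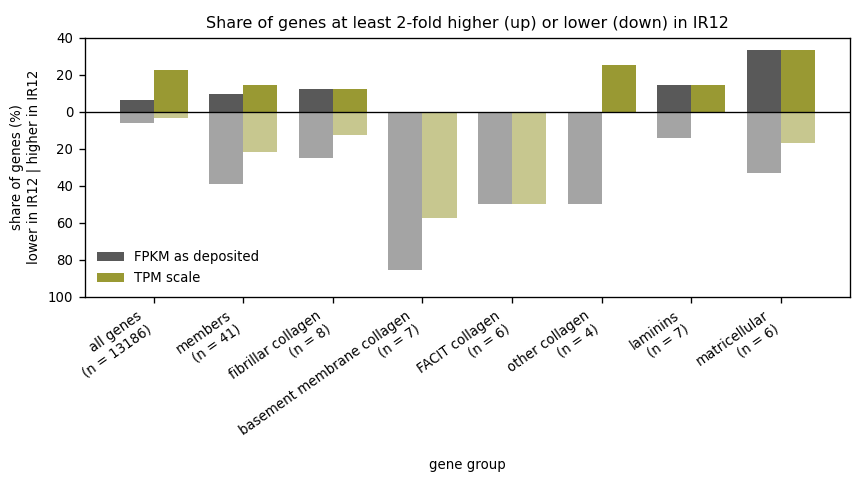
Share of genes at least 2-fold higher (bars up) or lower (bars down) in IR12, for all genes and for each gene group, with FPKM as deposited (grey) and on the TPM scale (olive); n is the number of genes counted. The basement membrane collagens have the longest lower bar on both scales, with 6 of 7 genes as deposited and 4 of 7 on the TPM scale.

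Of the 7 basement membrane collagens counted, 6 were called lower, where 6.05% of all genes were. These 6 were the chains of collagen IV. Their summed FPKM was 130.1 in CTRL against 31.0 in IR12, and their median log2 ratio was -1.95 as deposited and -1.54 on the TPM scale. The chains are used in fixed combinations, and the genes lie in head-to-head pairs in the genome. All 6 were also lower on the TPM scale, where 4 of them were past the fold, against 3.4% of all genes.

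The widespread trimer of collagen IV, found in nearly all basement membranes, has 2 chains from *Col4a1* and 1 from *Col4a2*. *Col4a1* had an FPKM of 32.8 in CTRL against 5.32 in IR12, a log2 ratio of -2.42. *Col4a2* had 19.9 in CTRL against 4.73 in IR12, a log2 ratio of -1.86. The ratio of the FPKM themselves was 6.17-fold for the first and 4.20-fold for the second.

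*Col4a3*, *Col4a4* and *Col4a5* form the trimer of specialised membranes such as that of the kidney glomerulus, and loss of any of them causes Alport syndrome, which also affects the lens and retina. *Col4a4* was the most abundant basement membrane collagen, with an FPKM of 51.2 in CTRL against 16.4 in IR12. Its partner *Col4a3* was far less abundant, with 5.50 in CTRL against 2.24 in IR12, and at a log2 ratio of -1.002 it stood at the limit of the call. *Col4a5* had 15.5 in CTRL against 1.78 in IR12, a log2 ratio of -2.57. On the TPM scale *Col4a3* and *Col4a4* were no longer past 2-fold, at -0.53 and -0.97.

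*Col4a6*, which is built into trimers with *Col4a5*, had an FPKM of 5.26 in CTRL against 0.538 in IR12. By the ratio of the FPKM themselves, the pair on the X chromosome, *Col4a5* and *Col4a6*, differed most, by 8.70-fold and 9.79-fold. With 1 added to each value, *Col4a6* had a log2 ratio of -2.03, a smaller difference than the -2.42 of *Col4a1*. The share of the summed collagen IV FPKM from *Col4a4* was 39.4% in CTRL and 52.9% in IR12, while that from *Col4a1* was 25.2% and 17.1%.

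The remaining basement membrane collagens did not follow. *Col18a1*, the source of the fragment endostatin, had an FPKM of 5.44 in CTRL against 5.15 in IR12. *Col7a1*, the anchoring fibril collagen, had 0.0724 and 0.114, below the minimum. *Col15a1* was listed at 0 in both libraries.

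The paired arrangement is shown by the stretches of sequence between the gene starts, given because the 2 genes of each pair were lower together. The sequences are RefSeq promoters on the build GRCr8, which differs from the build of the expression table, and are written 5′ to 3′ on the plus strand, the strand of the first gene of each pair. Capitals mark the GC box GGGCGG or its reverse complement CCGCCC, the core of sites bound by Sp1. The starts of *Col4a1* and *Col4a2* lie 77 bases apart on chromosome 16, and the 76 bases between them, chr16:84885521-84885596, are shown whole.
Col4a1 and Col4a2: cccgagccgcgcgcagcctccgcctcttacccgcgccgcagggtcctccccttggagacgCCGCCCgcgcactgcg
The starts of *Col4a3* and *Col4a4* lie 413 bases apart on chromosome 9, and the 250 bases next to the start of *Col4a3*, chr9:91323740-91323989, are shown.
Col4a3 and Col4a4: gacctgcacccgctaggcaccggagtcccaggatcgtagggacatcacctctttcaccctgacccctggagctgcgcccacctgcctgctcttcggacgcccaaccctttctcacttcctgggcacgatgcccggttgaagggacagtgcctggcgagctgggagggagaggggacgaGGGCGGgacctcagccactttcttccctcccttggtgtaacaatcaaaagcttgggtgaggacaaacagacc
The starts of *Col4a5* and *Col4a6* lie 1415 bases apart on the X chromosome, and the 250 bases next to the start of *Col4a5*, chrX:109907109-109907358, are shown.
Col4a5 and Col4a6: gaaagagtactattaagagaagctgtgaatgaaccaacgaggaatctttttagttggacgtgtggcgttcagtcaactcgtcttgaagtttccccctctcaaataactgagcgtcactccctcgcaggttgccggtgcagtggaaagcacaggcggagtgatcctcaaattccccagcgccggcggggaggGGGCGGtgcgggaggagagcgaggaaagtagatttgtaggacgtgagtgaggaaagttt

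Each of the 3 stretches holds 1 GC box and none holds the TATA box TATAAA, the CCAAT box CCAAT or the AP-1 element TGANTCA on either strand. The stretch between *Col4a1* and *Col4a2* is 78.9% G and C, against 62.0% and 52.8% for the bases shown of the other pairs. Promoters of 300 bases, from 250 before to 50 after the gene start, were matched by symbol for 51 of the 65 symbols, with 55 entries. The GC box is in 30 of these 55 and in 33.1% of all 33469 promoters. It is in 6 of the 14 entries of lower members and in 3 of the 4 entries of higher members. The CCAAT box is in 17 of the 55 and in 37.5% of all promoters. It is in 5 of the 14 entries of lower members, *Col4a1* and *Col4a2* among them, whose windows reach past the stretch shown, and in 2 of the 4 of higher members. The TATA box is in 8 of the 55 and in 14.2% of all promoters, with 1 lower and 1 higher entry. The AP-1 element is in 2 of the 55, in 7.33% of all promoters and in none of the entries of the called members. A match describes the letters of the sequence and is neither a site nor a cause.

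The FACIT collagens, which sit on the surface of fibrils and have an interrupted triple helix, held the largest single difference. *Col9a1* had an FPKM of 27.4 in CTRL against 1.35 in IR12, a log2 ratio of -3.60 and a 20.3-fold difference in FPKM. Its partner chains in collagen IX were less abundant. *Col9a2* had 2.81 in CTRL against 0.387 in IR12, a log2 ratio of -1.46. *Col9a3* had 1.94 in CTRL against 0.517 in IR12, and at -0.96 it was not past the fold.

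Collagen IX as a whole summed to an FPKM of 32.2 in CTRL against 2.25 in IR12. *Col22a1*, a collagen of tissue junctions, had 3.34 in CTRL against 0.319 in IR12, a log2 ratio of -1.72. *Col12a1* had 2.55 in CTRL against 1.21 in IR12, short of the fold at -0.68. *Col20a1* was the exception among the 6 FACIT genes counted, with 1.67 in CTRL against 1.72 in IR12. The other 3 FACIT genes, *Col14a1*, *Col16a1* and *Col19a1*, had a mean below 1 and lower values in IR12.

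The fibrillar collagens divided. *Col5a3*, the third chain of collagen V, was the most abundant fibrillar gene, with an FPKM of 25.9 in CTRL against 69.1 in IR12, a log2 ratio of 1.38. Its partner chains were within the fold. *Col5a1* had 2.68 in CTRL against 2.16 in IR12, and *Col5a2* had 2.53 and 2.35. *Col5a3* therefore made up 83.2% of the summed collagen V FPKM in CTRL and 93.9% in IR12.

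Of the other fibrillar collagens, *Col2a1* and *Col11a2* were lower. *Col2a1*, the main fibril collagen of vitreous and cartilage, had an FPKM of 4.91 in CTRL against 0.605 in IR12, a log2 ratio of -1.88. *Col11a2*, a minor component of the same fibrils, had 3.12 in CTRL against 0.977 in IR12, a log2 ratio of -1.06 that was -0.70 on the TPM scale. *Col11a1* had 23.7 in CTRL against 11.6 in IR12, and at -0.97 it stood just short of the fold. The cartilage genes *Chad* and *Matn1* were listed at 0 in both libraries, and the 4 cartilage markers together summed to 0.283 in CTRL against 0.296 in IR12.

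The collagens that dominate scar and connective tissue were all below the minimum. *Col1a1* had an FPKM of 0.0693 in CTRL against 0.00676 in IR12, *Col1a2* was listed at 0 in both, and *Col3a1* had 0.427 and 0.376. The 4 fibroblast markers were divided. The proteoglycans *Dcn*, with 0.665 and 0.0916, and *Lum*, with 0.107 and 0.0629, were below the minimum. *Mgp*, with 7.26 and 19.2, was higher, and *Pdgfra*, with 7.28 and 1.88, was lower. *Col24a1* and *Col27a1* differed by less than 0.1 on the log2 scale as deposited.

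Among the other collagens, 4 of 16 rows passed the minimum. *Col25a1*, a transmembrane collagen of neurons, had an FPKM of 4.10 in CTRL against 1.23 in IR12, a log2 ratio of -1.19. *Col6a5*, a chain of collagen VI, had 2.74 in CTRL against 0.582 in IR12, a log2 ratio of -1.24. On the TPM scale both were short of the fold, at -0.80 and -0.97. *Col8a1*, a network collagen of vessel walls and of the cornea, had 1.79 in CTRL against 0.892 in IR12, while its partner *Col8a2* had 0.780 and 0.771.

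The core chains of collagen VI were all within the fold or below the minimum, with *Col6a1* higher and *Col6a2* and *Col6a3* lower as deposited, although *Col6a2* was higher on the TPM scale. *Col6a1* had an FPKM of 0.654 in CTRL against 1.78 in IR12, a log2 ratio of 0.75. *Col6a2* had 0.929 in CTRL against 0.794 in IR12, and *Col6a3* had 0.187 and 0.0801. The rows below the minimum also hold *Col17a1*, listed at 0 in CTRL with 0.235 in IR12, and *Col26a1*, listed at 0 in IR12. The second row of *Col23a1* was at 0 in both, and its first row had 1.0002 in CTRL against 0.435 in IR12.

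The part of other cells in the collagen results was not tested. Their markers did not share a direction. The median log2 ratio was -2.68 for the lens markers and -2.33 for the Müller glia markers. It was 0.07 for the rod markers, -0.07 for the ganglion cell markers and 2.42 for the leukocyte markers. The 20.3-fold difference of *Col9a1* and the 6.17-fold difference of *Col4a1* stand beside an 8.22-fold difference of *Cryba1* and a 5.998-fold difference of *Glul*. Endothelial markers did not differ in this way, with none of 4 past the fold. Pericyte and smooth muscle markers summed to 54.2 in CTRL against 27.7 in IR12. Only *Rgs5*, their most abundant gene, was past the fold as deposited, and on the TPM scale it was not, at -0.47. No gene of FPKM 1 or more overlaps the locus of any of the 20 called members.

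**Figure D3:**
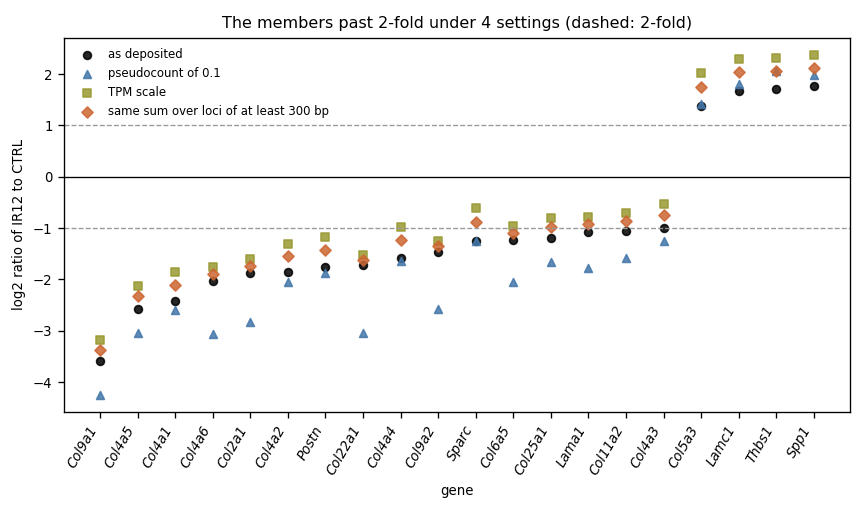
Log2 ratio of IR12 to CTRL for the 20 members past 2-fold, in order of their ratio, as deposited and under 3 other settings; dashed lines mark 2-fold. All 20 keep their sign in each setting. Of the lower genes, 7 come inside the dashed line on the TPM scale, and the 4 higher genes stay above it in each.

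The laminins differed chain by chain. *Lamc1*, the gamma chain shared by most laminins, had an FPKM of 6.31 in CTRL against 22.4 in IR12, a log2 ratio of 1.68. *Lamc3*, a gamma chain known from the retinal matrix, had 0.842 in CTRL against 0.376 in IR12.

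None of the beta chains matched the rise of *Lamc1*. *Lamb3* was the most abundant, with an FPKM of 14.0 in CTRL against 7.62 in IR12. *Lamb1* had 9.84 in CTRL against 7.21 in IR12, and *Lamb2*, the chain of mature basement membranes and of photoreceptor synapses, had 2.78 and 1.81. All 3 had a log2 ratio between -0.80 and -0.40 as deposited, so no call was made, and their median was 0.02 on the TPM scale.

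Of the alpha chains, which bind the receptors on cells, *Lama1* alone passed the fold. It codes for the alpha chain of the inner limiting membrane and the lens capsule, and had an FPKM of 2.48 in CTRL against 0.649 in IR12. Its log2 ratio was -1.08 as deposited and -0.79 on the TPM scale. *Lama4*, an alpha chain of blood vessels, had 4.77 in CTRL against 6.67 in IR12, and its locus overlaps that of *Fam229b*, a gene with an FPKM of at least 1.

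*Lama4*, which was within the fold, made up 44.1% of the summed alpha chain FPKM in CTRL and 70.7% in IR12. *Lama1* made up 22.9% and 6.87%, and the sum itself was 10.8 and 9.44. *Lama3* had an FPKM of 2.44 in CTRL against 1.44 in IR12. *Lama2*, the chain of muscle, had 0.659 and 0.373, and *Lama5* had 0.461 and 0.308. Over the 7 laminins counted, the median log2 ratio was -0.43 as deposited and 0.02 on the TPM scale, so no direction is given for the laminins as a group.

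Fibronectin (*Fn1*), the plasma and matrix glycoprotein that cells bind during repair, had an FPKM of 2.32 in CTRL against 4.48 in IR12. Its log2 ratio of 0.72 was short of the fold as deposited and past it on the TPM scale, at 1.27. The lectican *Vcan*, a hyaluronan-binding proteoglycan of the vitreous and of the matrix between photoreceptors, had 15.0 in CTRL against 9.25 in IR12. *Bcan*, the lectican of perineuronal nets in the brain, had 0.381 and 0.149 and was not counted.

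The matricellular genes moved in opposite directions. *Spp1*, osteopontin, made by macrophages and by some retinal neurons, had an FPKM of 3.80 in CTRL against 15.3 in IR12, a log2 ratio of 1.76. *Thbs1*, thrombospondin-1, an activator of TGF-beta and an inhibitor of vessel growth, had 2.24 in CTRL against 9.62 in IR12, a log2 ratio of 1.71. These were the largest rises among the members, 4.03-fold and 4.30-fold in FPKM. Leukocyte markers, among them *Itgam* with 0.693 in CTRL against 5.71 in IR12, rose beside them, and their part in these rises was not tested.

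*Sparc*, a collagen-binding glycoprotein, had an FPKM of 153 in CTRL against 64.1 in IR12. It was the most abundant of all members in CTRL, while *Col5a3* was above it in IR12. Its log2 ratio of -1.24 was -0.60 on the TPM scale. *Postn*, periostin, had 28.3 in CTRL against 7.69 in IR12, a log2 ratio of -1.75. The paralog of *Thbs1*, *Thbs2*, had a lower value in IR12, with 1.78 in CTRL against 0.408 in IR12. Its log2 ratio of -0.98 was short of the fold with 1 added to each value and -1.89 with 0.1 added.

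*Tnc*, tenascin-C, a matrix protein of developing and injured tissue, had an FPKM of 12.1 in CTRL against 13.5 in IR12. Over the 6 matricellular genes, the median log2 ratio was -0.42 as deposited and 0.08 on the TPM scale, so they have no common direction. The 4 higher members are on different chromosomes. On the build rn6 of the table, *Spp1* lies on chromosome 14 and *Thbs1* on chromosome 3, while *Lamc1* is on chromosome 13 and *Col5a3* on chromosome 8.

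The enzymes and chaperones that make collagen did not follow the collagens. Of 26 counted, 4 were higher and 1 was lower, where 6.29% and 6.05% of all genes were. The median log2 ratio was 0.03. On the TPM scale 8 were higher and 1 was lower, where 22.3% and 3.4% of all genes were. The crosslinking enzyme *Tgm2* had an FPKM of 2.97 in CTRL against 12.8 in IR12, and *Crtap*, a partner of the prolyl 3-hydroxylase, had 1.65 and 6.52 in one of its rows and 0 in the other. The lysyl hydroxylase *Plod3* had 4.64 and 11.0, and *Sec24d*, a coat protein for secretory cargo, had 0.831 and 2.71.

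The lower one was *Colgalt2*, which adds galactose to collagen, with 6.36 in CTRL against 1.36 in IR12. The most abundant enzyme of the list was *P4hb*, a subunit of the prolyl 4-hydroxylase, with 112 in CTRL against 162 in IR12. The dedicated collagen chaperone *Serpinh1* had 12.7 and 14.3.

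Matrix receptors were higher or within the fold, and none of 22 was at least 2-fold lower. As deposited 5 were higher, where 6.29% of all genes were higher and 6.05% lower. The hyaluronan and osteopontin receptor *Cd44* led the 5 higher ones, with an FPKM of 40.8 in CTRL against 299 in IR12, and was the most abundant of the list in IR12 but not in CTRL. The integrin chain *Itgb1*, shared by the main collagen, laminin and fibronectin receptors, had 40.003 in CTRL against 117 in IR12. The laminin-binding alpha chains *Itga3*, with 4.56 and 11.7, and *Itga7*, with 2.26 and 5.82, were higher too. *Cd47*, a receptor of thrombospondin-1, had 58.0 in CTRL against 130.01 in IR12. The median over the 22 was -0.16 as deposited and 0.40 on the TPM scale, below the 0.62 of all genes. On that scale 7 of the 22 were higher, where 22.3% of all genes were.

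The other proteins of basement membranes were lower or within the fold as deposited. Of 13 counted, 4 were lower and none higher, where 6.05% and 6.29% of all genes were. The median log2 ratio was -0.62 as deposited and -0.18 on the TPM scale. On the TPM scale 1 was lower, *Nid1*, and 1 higher, *Egflam*, with 49.8 and 69.4, where 3.4% and 22.3% of all genes were. The nidogen *Nid1*, which links the collagen IV and laminin networks, had an FPKM of 19.9 in CTRL against 5.06 in IR12. Its paralog *Nid2* had 2.62 and 0.532. *Frem1* had 9.73 and 4.12, and *Frem2* had 1.94 and 0.403.

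**Figure D4:**
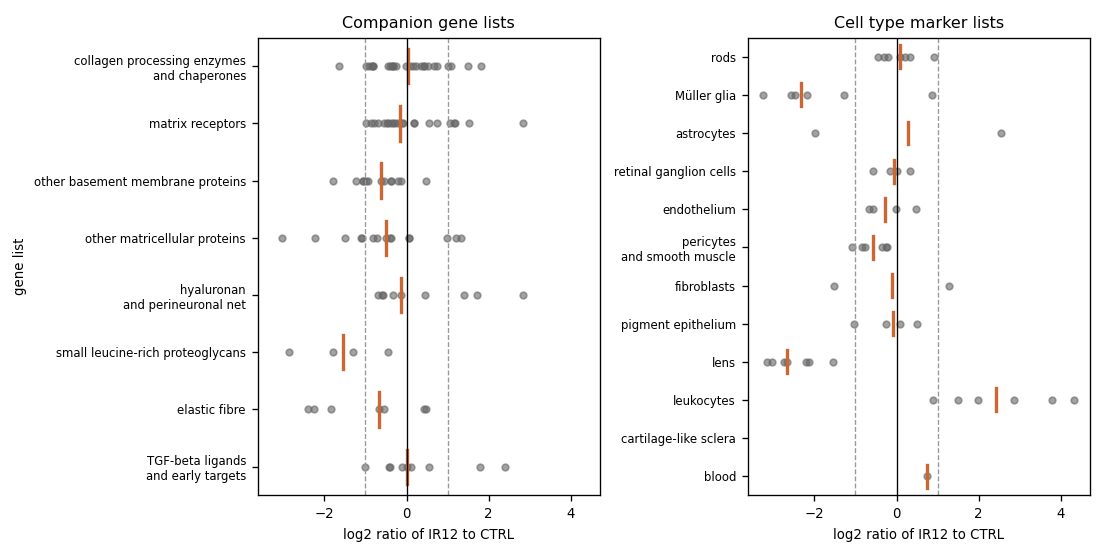
Log2 ratio of IR12 to CTRL as deposited for each gene with a mean FPKM of at least 1 (points) in the companion gene lists and the cell type marker lists, with the median of each list (bar) and 2-fold (dashed); 1 library per condition. The lens and Müller glia lists lie left and the leukocyte list lies right, with medians of -2.68, -2.33 and 2.42; on the TPM scale they are -2.10, -1.75 and 3.03. No cartilage marker passed the minimum.

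Other matricellular genes were also divided, with 5 of 15 lower and 2 higher, where 6.05% and 6.29% of all genes were. The fibulin *Fbln1* had an FPKM of 17.0 in CTRL against 1.21 in IR12, and the related *Efemp1* had 81.8 and 16.7. *Ctgf*, a target of TGF-beta and of mechanical tension, had 14.8 in CTRL against 4.57 in IR12, while its close relative *Cyr61* had 0.947 and 3.90. *Efemp2* was the other higher gene, with 6.86 and 17.2. The most abundant of the list, *Sparcl1*, a relative of *Sparc*, had 128 in CTRL against 91.0 in IR12. The median was -0.49 as deposited and 0.15 on the TPM scale, where 2 of 15 were lower and 3 higher, against 3.4% and 22.3% of all genes.

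The ligands and early targets of TGF-beta, a main inducer of matrix genes, held 2 higher genes and 1 lower gene of 9. As deposited, 6.29% and 6.05% of all genes were higher and lower. Rescaled to TPM, 2 were higher, a share like the 22.3% of all genes, and none lower. The repressor *Tgif1*, one of the higher genes, had an FPKM of 2.96 in CTRL against 12.7 in IR12. *Inhba*, an activin subunit, had 1.85 and 0.404 and was short of the fold on the TPM scale. The ligand *Tgfb2*, the most abundant gene of the list, had 52.0 in CTRL against 47.9 in IR12.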

How the data were processed

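Gene expression of 1 CTRL and 1 IR12 retina was used as FPKM deposited by the authors, who cut each read to its first 100 bases. The submitters' processing notes name STAR 2.5.2b, Cuffdiff 2.2.0 and the build rn6. The kit is given as total RNA in the labels and as mRNA in the series text, both with ribosomal RNA removal. Listed locus starts count from 0 and were raised by 1.

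The members were found by symbol. Ratios were taken as log2((IR12 + 1)/(CTRL + 1)), genes were counted at a mean FPKM of at least 1, and calls were made at 2-fold. With 1 library per condition no test was run. FPKM sum to 1402321 in CTRL against 895199.9 in IR12, and genes with a locus under 300 bp take 33.0% and 18.8% of these sums, so the sums do not measure depth. Depth was read from the lowest FPKM repeated among loci of equal length from 300 to 1500 bp, multiplied by the length less 200 bp. Of 32 lengths in CTRL, 26 lay at 1 step, between 0.0643 and 0.0657 per kilobase. Of 47 lengths in IR12, 39 lay at 1 step, between 0.0379 and 0.0385. All 32 and all 47 were within 5% of a whole multiple of the step.

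Values were printed for members past 2-fold, the 9 singly named genes, the 3 most abundant of each role and their partners in a trimer. Other members that are named, *Col1a1* and *Col18a1* among them, *Serpinh1*, *Eln*, *Impg1*, *Egflam*, *Fam229b* and single markers were chosen after their values were seen. From companion lists, up to 5 members past 2-fold and the most abundant one were named. Some genes under these rules are not reported here. Members and lists were chosen with earlier results of these data known. The alternatives were a pseudocount of 0.1, the TPM scale, centring on the median gene, a minimum mean FPKM of 5 or none and, added after seeing the data, the same sum over loci of at least 300 bp. The procedure was tested on simulated data. Python 3.11.15, numpy 2.4.6, pandas 2.3.3 and matplotlib 3.10.9 were used.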

Additional observations from a re-analysis of the deposited data

How the results depend on the processing

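The 4 higher members stayed past 2-fold under each alternative, and their number was between 4 and 6. All 16 lower members stayed at least 2-fold lower with a pseudocount of 0.1 (20 genes in all), after centring on the median gene (17) and with no minimum (16). In these settings 1056, 826 and 832 of all genes were lower. On the TPM scale 9 members were lower, and 448 of all genes were lower and 2935 higher. With a minimum mean FPKM of 5, 7 members were lower and 4 higher, since only 19 members are then counted, and 515 of all genes were lower and 531 higher. With no minimum, 63 members are counted. The number of all genes counted also changes with the minimum. The 832, 515 and 531 genes are therefore not counts out of 13186, and no share is given for them. With loci of at least 300 bp brought to the same sum, an alternative chosen after seeing the data, 11 members were lower and 5 higher. Of all genes, 549 were then lower and 1617 higher. The median log2 ratio of the members was -0.93 with a pseudocount of 0.1, -0.22 on the TPM scale, -0.27 with no minimum and -0.47 with loci of at least 300 bp at the same sum. For the collagens these were -1.58, -0.70, -0.26 and -0.82, and -1.73 with a minimum of 5. The median of the laminins turned to 0.0236 on the TPM scale and 0.006 with a minimum of 5, and that of the matricellular proteins to 0.0757 and 0.143. The shifts on the TPM scale follow from the multiplication of IR12 by 1.57. No named member that was past 2-fold changed sign. With 1 library per condition, leaving out a library was not possible. For the same reason, no paired analysis was possible. Values near or below 1 rest on the fewest reads, more so in CTRL.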

Other observations

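In the elastic fibre list, 3 of 7 genes counted were lower and none was higher as deposited, where 6.05% of all genes were lower and 6.29% higher. After the rescaling to TPM, 3 were lower and 1 was higher, where 3.4% and 22.3% of all genes were. The fibrillin *Fbn1*, the main protein of the fibres that hold the lens, had an FPKM of 33.8 in CTRL against 5.64 in IR12. *Ltbp2* and *Mfap2*, both bound to fibrillin fibres, had 6.05 and 0.489, and 3.04 and 0.137. Elastin itself (*Eln*) was below the minimum, with 0.883 and 0.522. In the list of small leucine-rich proteoglycans, 3 of 4 genes counted were lower on both scales and none was higher. *Optc*, opticin, a protein of the vitreous made by the ciliary epithelium, had 15.6 in CTRL against 1.29 in IR12. *Prelp* had 6.41 and 1.14, and *Fmod* had 2.52 and 0.432. The most abundant of this list, *Podn*, had 90.4 and 66.2. The calls of these 6 genes held on the TPM scale. The part of lens or ciliary tissue in these values was not tested.

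Of 9 hyaluronan and perineuronal net genes counted, 3 were at least 2-fold higher and none at least 2-fold lower, while the median log2 ratio was -0.14 as deposited and 0.50 on the TPM scale. On that scale 4 were higher and none lower. Of all genes, 6.29% were higher as deposited and 22.3% on the TPM scale. *Ncan*, neurocan, a lectican known to rise in injured nervous tissue, had an FPKM of 1.34 in CTRL against 15.6 in IR12. The hyaluronan synthase *Has2* had 0.621 and 3.29. *Impg2*, a proteoglycan of the matrix around photoreceptors and the most abundant gene of the list, had 374 and 1223, while its relative *Impg1* had 162 and 146.

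The remaining marker lists moved less or in both directions. Of the astrocyte markers, *Gfap*, which is also known from reactive Müller glia, had an FPKM of 2.95 in CTRL against 21.9 in IR12, while *S100b* had 25.8 and 5.81 and *Pax2* was listed at 0 in CTRL. The list summed to 28.8 and 27.8. Ganglion cell markers summed to 269 in CTRL against 223 in IR12, with none past 2-fold and *Nefl* the most abundant. Endothelial markers summed to 115 and 74.2, and most of both sums was *Kdr*, with 108 and 66.8. *Cldn5* and *Tek* were also lower in IR12 as deposited, while *Cdh5*, with 0.883 and 1.63, and *Tie1*, with 0.423 and 0.712, were higher. Pigment epithelium markers, with *Ttr* the most abundant, summed to 89.3 and 107, and 1 of 4, *Rpe65*, was lower as deposited. On the TPM scale *Rpe65* was within the fold, at -0.48, and *Ttr* was higher, at 1.13. Fibroblast markers summed to 15.3 and 21.2, with *Mgp* the most abundant by the mean of both libraries. Blood markers, with *Hbb* the most abundant, summed to 20.8 and 35.3, with none past 2-fold as deposited. On the TPM scale *Hbb* was higher, at 1.39.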
